A study of Homo sapiens with 12 samples.

Results

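Calcium ions enter the cytosol from outside the cell and from the endoplasmic reticulum, and 37 genes that encode channels, pumps and store proteins of this traffic were followed here among the 60671 genes counted in a human fibroblast line. The set was a list of gene symbols, each matched to 1 Ensembl identifier of the count table. It holds 7 genes of calcium release and its regulators, 4 phospholipases C, 5 genes of store-operated entry, 8 TRP channels, 5 subunits of voltage-gated channels, 2 PIEZO channels, 3 pumps, 2 genes of mitochondrial uptake and the calcium-dependent kinase CAMK2D. Of these, 35 passed the filter on low counts. CACNA1H and PIEZO2 did not, and CACNA1G, PLCG2, PLCE1, TRPV2 and TRPA1 passed it without exceeding 1 CPM in all 12 libraries.

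The cells were BJ-5ta, foreskin fibroblasts that carry telomerase. Wild-type cells in 10% serum (WT_10) and after 10 days in 0.1% serum (WT_01) were set against ΔLEO1 cells in 10% serum (Leo1_10) and after the same time in 0.1% serum (Leo1_01), with 3 libraries of poly(A) RNA in each group. LEO1 is a subunit of the PAF1 complex, which travels with RNA polymerase II. The ΔLEO1 cells were a single clone, made with CRISPR/Cas9 by a deletion between exons 1 and 2, so what belongs to the deletion and what belongs to this clone cannot be told apart. All 4 groups carry the telomerase gene, and the low-serum groups are the cultures that the study treats as quiescent.

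Receptors that activate phospholipase C raise inositol trisphosphate, which opens IP3 receptors in the membrane of the endoplasmic reticulum and lets stored calcium out. STIM proteins sense the emptied store and open ORAI channels in the plasma membrane, while TRP and PIEZO channels let calcium in on chemical, thermal or mechanical stimuli. SERCA pumps refill the store, plasma membrane pumps expel calcium from the cell, and in fibroblasts such signals are known from growth factor responses, migration and contraction.

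Gene counts per library ran from 26240632 to 45315560, and the added ERCC transcripts took 0.625% to 3.24% of all counts. Values are given on 2 scales. The ERCC-scaled count divides a gene's count by the effective ERCC total of its library, so it follows the RNA of a gene per unit of added ERCC RNA. CPM divides it by the TMM-scaled total of the gene counts, so it follows a gene relative to the other genes. On the ERCC scale the median log2 fold change of the 13236 tested genes was −0.97 for low serum in wild-type cells and −1.05 in ΔLEO1 cells, and 0.35 and 0.27 for ΔLEO1 against wild type in 10% and in 0.1% serum, so a value near these is what the median gene showed. Fewer cells and less RNA per cell cannot be told apart on this scale, and the RNA input of each library is not given in the sources used here. In every group the highest-numbered library (3, 6, 9 and 12) stood apart, with a chi-square per gene of 53.9 to 116 against either other library, compared with 2.73 to 10.2 between those. The labels do not say whether the 3 libraries were separate cultures, so p-values measure only the spread between libraries. The fibroblast markers were all high, the lowest being DCN at 544 CPM or more, and 15 of 19 markers of other cell types stayed below 1 CPM in all libraries. The neuronal gene SYT1 reached 23.2 CPM, in WT_10. A muscle, a blood and an epithelial marker exceeded 1 CPM in ΔLEO1 libraries only. They reached 9.15 CPM in Leo1_10, 7.26 CPM in Leo1_01 and 1.47 CPM in Leo1_10, respectively. LEO1 was read 851, 935 and 915 times in WT_10 and 1001, 799 and 682 times in WT_01, against 53, 36 and 55 in Leo1_10 and 23, 47 and 49 in Leo1_01.

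Per kilobase of exon, ATP2B4, a plasma membrane calcium pump, stood highest of the 37 genes in all 4 groups. Its level was 129 ± 17.5 CPM per kilobase in WT_10 (mean ± SD, n = 3), 60.4 ± 17.5 in WT_01, 95.7 ± 14.6 in Leo1_10 and 76.0 ± 21.9 in Leo1_01. In WT_10 it was followed by ATP2A2, the SERCA pump of the store, at 49.99 ± 16.3, by PKD2, a TRP-family cation channel of the endoplasmic reticulum and cilium, at 48.4 ± 2.34, by the plasma membrane pump ATP2B1 at 33.7 ± 9.44 and by the mechanically gated channel PIEZO1 at 24.2 ± 1.59. The gap between ATP2B1 and PIEZO1 was smaller than the sum of their SDs. How far ATP2A2 stood from its neighbours depended on the length used. With the longest transcript in place of all exon bases, ATP2A2 was at 120.5 ± 39.3 in WT_10, ATP2B4 at 140.0 ± 19.0 and PKD2 at 52.7 ± 2.55, so ATP2A2 stood apart from PKD2 and within the spread of ATP2B4, whereas by all exon bases the reverse held. By all exon bases, PKD2 was at rank 6 of the 37 in WT_01 with 15.5 ± 1.04 CPM per kilobase, behind ATP2B1, ATP2A2, PIEZO1 and TPCN1. In Leo1_10, PKD2 was at rank 3 with 25.4 ± 2.22, and TRPC6, a receptor-operated cation channel, was at rank 6 with 13.5 ± 6.46.

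At the low end, ITPR1, an IP3 receptor best known from neurons, was at 0.0913 ± 0.00429 CPM per kilobase in WT_10, below ITPR2 at 3.77 ± 0.367. The T-type channel genes CACNA1G and CACNA1H and the mechanical channel gene PIEZO2 were the last 3 in WT_10. The summed CPM of the 37 genes was 3984 ± 412 in WT_10, 2526 ± 192 in WT_01, 3020 ± 322 in Leo1_10 and 2636 ± 389 in Leo1_01 (mean ± SD, n = 3), so the 3 libraries of WT_10 lay above all libraries of the other groups by this sum.

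**Figure D1:**
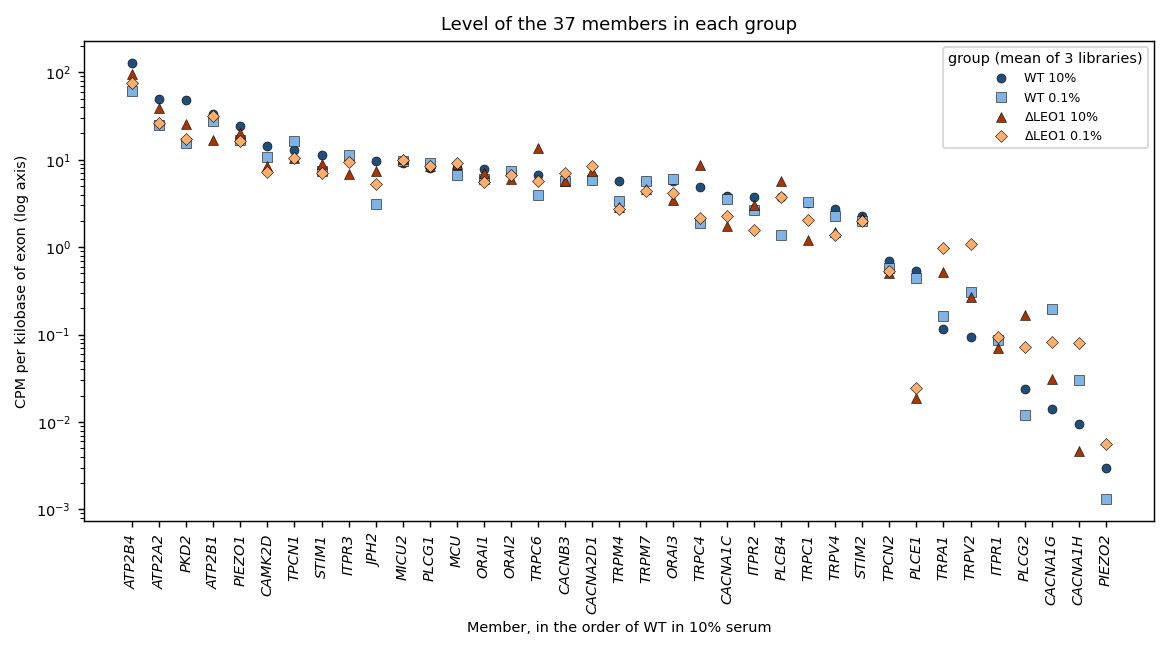
Level of each of the 37 genes in CPM per kilobase of exon on a log axis, with a marker for the mean of the 3 libraries of each of the 4 groups and the genes in the order of WT_10. ATP2B4 stands highest in all 4 groups, at 129 in WT_10 and 60.4 in WT_01, and PIEZO2 in Leo1_10 had no counts and is not drawn.

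Low serum was compared with 10% serum in each genotype, which asks how the calcium genes respond when fibroblasts leave the cell cycle. Among the 35 tested genes, 21 had lower ERCC-scaled levels in low serum in wild-type cells and 1 had a higher one, against 36.1% and 0.944% of all tested genes, and the median log2 fold change of the 35 was −1.24. In ΔLEO1 cells 19 were lower, against 47.2% of all tested genes, and none was higher, against 0.975%, with a median of −1.07. None of the 35 was higher at an unadjusted p under 0.05 in ΔLEO1 cells by edgeR's likelihood ratio test, nor by the quasi-likelihood test or DESeq2 after adjustment. By their share of the RNA, 11 were lower and 2 higher in wild-type cells, against 16.6% and 16% of all tested genes, and 7 lower and 5 higher in ΔLEO1 cells, against 12.9% and 16.5%. On that scale the medians were −0.25 and −0.04. The genes of each role are taken in turn below, first with the ERCC-scaled count in every library.

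**Figure D2:**
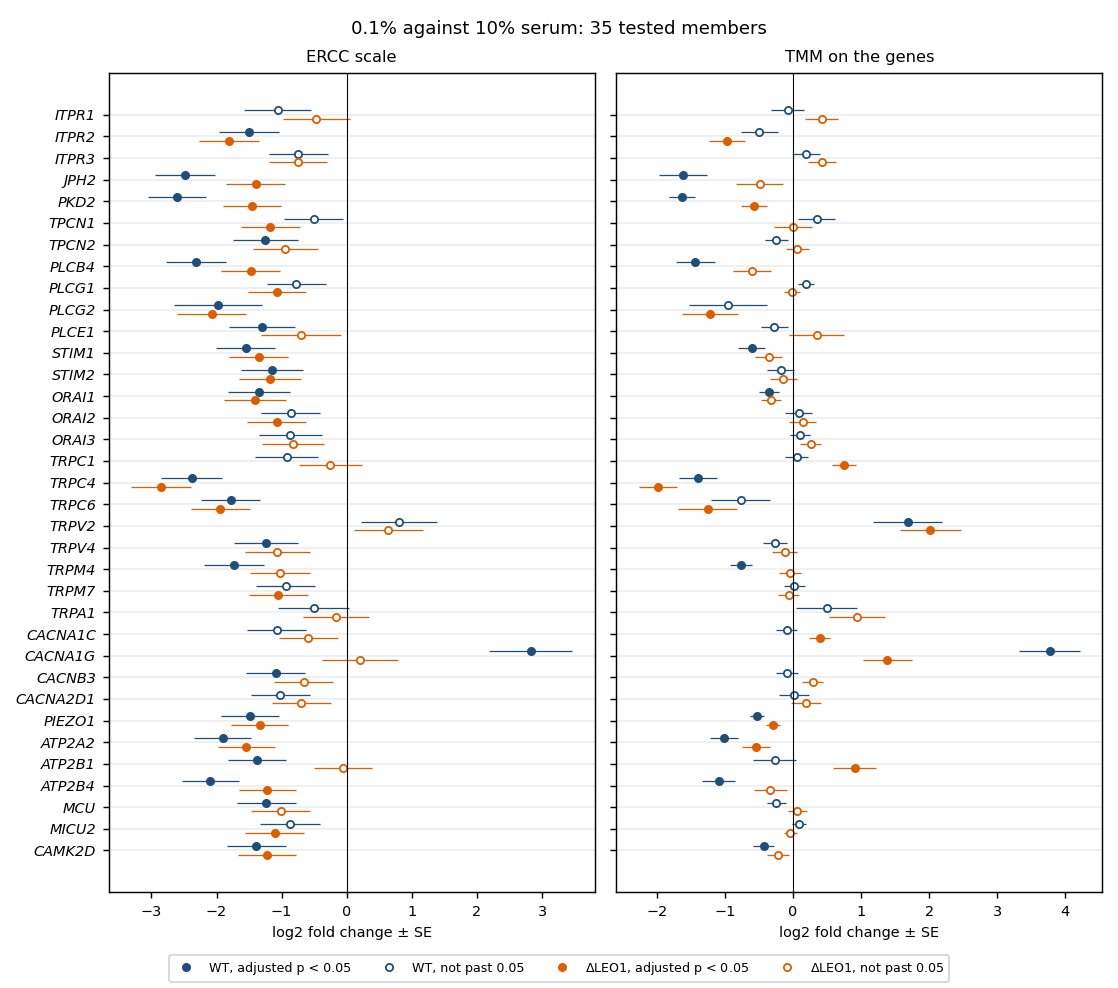
Log2 fold change of the 35 tested genes between 0.1% and 10% serum in wild-type and ΔLEO1 cells, on the ERCC scale and relative to the other genes, with SE bars. Filled markers passed the test at an adjusted p of 0.05, and CACNA1G is the only gene with a filled marker above 0 on the ERCC scale.

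Of the genes of store release, 4 of 7 (57.1%) fell on the ERCC scale in each genotype. Of all tested genes, 36.1% were called lower in wild-type cells and 47.2% in ΔLEO1 cells. PKD2 was at 32581, 25943 and 18759 ERCC-scaled counts in WT_10 and at 4438, 5152 and 3127 in WT_01, the largest decrease of the 35 in wild-type cells (log2 fold change −2.60 with an SE of 0.45, adjusted p = 2.28e-06). It was at 20744, 15126 and 15646 in Leo1_10 and at 4006, 2238 and 12520 in Leo1_01 (log2 fold change −1.46 with an SE of 0.45, adjusted p = 0.0116). No low-serum library reached a 10% serum library in either genotype, and Leo1_01 library 12 stood well above the other low-serum libraries. PKD2 also fell relative to the other genes, by 1.64 on the log2 scale in wild-type cells (adjusted p = 4.50e-15) and by 0.58 in ΔLEO1 cells (adjusted p = 0.0129).

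JPH2, a junctophilin that ties the endoplasmic reticulum to the plasma membrane, was at 5269, 4100 and 5939 ERCC-scaled counts in WT_10 and at 787, 1122 and 824 in WT_01 (log2 fold change −2.49 with an SE of 0.46, adjusted p = 1.13e-05). It was at 4796, 3580 and 7004 in Leo1_10 and at 1607, 811 and 3426 in Leo1_01 (log2 fold change −1.40 with an SE of 0.46, adjusted p = 0.0164). The serum levels did not overlap in either genotype, although Leo1_01 library 12 came close to the lowest Leo1_10 library. JPH2 was called lower relative to the other genes in wild-type cells (−1.62, adjusted p = 6.03e-05) and not in ΔLEO1 cells (−0.49, adjusted p = 0.304).

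Of the 3 IP3 receptors, ITPR2 alone was called. It was at 5345, 4910 and 3542 ERCC-scaled counts in WT_10 and at 1605, 1612 and 1651 in WT_01 (log2 fold change −1.50 with an SE of 0.46, adjusted p = 0.00977). In ΔLEO1 cells it was at 5326, 4212 and 4707 in 10% serum and at 753, 473 and 2858 in 0.1% serum (log2 fold change −1.81 with an SE of 0.46, adjusted p = 0.00256). The 3 WT_01 libraries lay close together and below all of WT_10, while the Leo1_01 libraries were spread widely and all below Leo1_10. Relative to the other genes ITPR2 was called in ΔLEO1 cells (−0.97, adjusted p = 0.00224) and not in wild-type cells (−0.50, adjusted p = 0.144). ITPR1 (log2 fold change −1.06, adjusted p = 0.08 in wild-type cells, log2 fold change −0.47, adjusted p = 0.403 in ΔLEO1 cells) and ITPR3 (log2 fold change −0.74, adjusted p = 0.146 and log2 fold change −0.75, adjusted p = 0.13) did not pass the test. Whether the 3 receptors differ from each other in their response was not tested, and 10.4% of ITPR3's exon bases lie opposite UQCC2.

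The 2 two-pore channel genes of endosomes and lysosomes gave 1 call in each genotype, against 36.1% and 47.2% of all tested genes called lower. TPCN2 was at 913, 762 and 436 ERCC-scaled counts in WT_10 and at 268, 370 and 248 in WT_01 (log2 fold change −1.25 with an SE of 0.50, adjusted p = 0.042). TPCN1 was at 12429, 9962 and 10806 in Leo1_10 and at 5578, 3061 and 6088 in Leo1_01 (log2 fold change −1.17 with an SE of 0.45, adjusted p = 0.0308). In both cases the low-serum libraries lay below all 10% serum libraries, by a small gap for TPCN2. Neither TPCN2 (−0.25, adjusted p = 0.257) nor TPCN1 (−0.01, adjusted p = 0.99) was called relative to the other genes, and the quasi-likelihood test did not call TPCN2.

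Phospholipase C makes the messenger that opens IP3 receptors. On the ERCC scale 3 of the 4 genes fell in each genotype, against 36.1% and 47.2% of all tested genes. PLCB4, the isoform switched on by G protein-coupled receptors, was at 2842, 2215 and 2174 ERCC-scaled counts in WT_10 and at 430, 717 and 312 in WT_01 (log2 fold change −2.31 with an SE of 0.46, adjusted p = 6.35e-05). It was at 4950, 3636 and 5492 in Leo1_10 and at 937, 724 and 3402 in Leo1_01 (log2 fold change −1.48 with an SE of 0.46, adjusted p = 0.0129). Its serum levels did not overlap in either genotype, and Leo1_01 library 12 lay above all wild-type libraries. PLCB4 was also called lower relative to the other genes in wild-type cells (−1.44, adjusted p = 9.77e-06) and not in ΔLEO1 cells (−0.61, adjusted p = 0.0909). PLCG2, the gamma isoform known from blood cells, was at 34.6, 26.8 and 28.3 in WT_10 and 2.78, 4.60 and 13.4 in WT_01 (log2 fold change −1.98 with an SE of 0.68, adjusted p = 0.0162), from 10, 10 and 16 and 2, 2 and 12 counts. It was at 367, 260 and 223 in Leo1_10 and at 36.3, 18.4 and 154 in Leo1_01 (log2 fold change −2.07 with an SE of 0.53, adjusted p = 0.00318). PLCG2 was scarce in wild-type cells and more abundant in ΔLEO1 cells, and its ERCC-scaled counts did not overlap between serum levels in either. It exceeded 1 CPM in 3 Leo1_10 libraries, 1 Leo1_01 library and no wild-type library, so the filter favoured its fall in ΔLEO1 cells. Without the filter the likelihood ratio test still called it in ΔLEO1 cells (adjusted p = 0.00707) and in wild-type cells (adjusted p = 0.035). By CPM the wild-type serum levels overlapped, since WT_01 library 9 lay above libraries 1 and 2 of WT_10, and the fall relative to the other genes was called in ΔLEO1 cells (−1.22, adjusted p = 0.015) and not in wild-type cells (−0.96, adjusted p = 0.183).

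PLCE1, an isoform that is bound by Ras, was at 902, 743 and 425 ERCC-scaled counts in WT_10 and at 257, 315 and 264 in WT_01 (log2 fold change −1.31 with an SE of 0.51, adjusted p = 0.0376). PLCG1, the isoform that growth factor receptors activate, was at 12641, 8936 and 8784 in Leo1_10 and at 3857, 2628 and 7938 in Leo1_01 (log2 fold change −1.07 with an SE of 0.45, adjusted p = 0.0424). Neither overlapped between serum levels in these comparisons, and neither was called relative to the other genes (PLCE1 in wild-type cells −0.27, adjusted p = 0.29, PLCG1 in ΔLEO1 cells −0.01, adjusted p = 0.95) or by the quasi-likelihood test.

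The RNA of 3 of 5 genes of store-operated entry was called lower in wild-type cells and of 4 of 5 in ΔLEO1 cells on the ERCC scale. The shares of all tested genes were 36.1% and 47.2%. STIM1, the main sensor of store calcium, was at 8916, 7760 and 6373 ERCC-scaled counts in WT_10 and at 2426, 3251 and 2182 in WT_01 (log2 fold change −1.55 with an SE of 0.45, adjusted p = 0.00703). It was at 8139, 5938 and 8886 in Leo1_10 and at 2652, 1429 and 4908 in Leo1_01 (log2 fold change −1.35 with an SE of 0.45, adjusted p = 0.0182). ORAI1, the pore that STIM1 opens, was at 2081, 1783 and 1226 in WT_10 and at 606, 782 and 619 in WT_01 (log2 fold change −1.34 with an SE of 0.47, adjusted p = 0.0246). Sensor and pore were thus lower in all 3 low-serum libraries than in any 10% serum library of wild-type cells, and both were also called lower there relative to the other genes (STIM1 −0.61, adjusted p = 0.00834, ORAI1 −0.35, adjusted p = 0.0496). ORAI1 was at 2406, 1957 and 1500 in Leo1_10 and at 704, 372 and 1138 in Leo1_01 (log2 fold change −1.41 with an SE of 0.47, adjusted p = 0.0192). In ΔLEO1 cells neither STIM1 (−0.36, adjusted p = 0.159) nor ORAI1 (−0.33, adjusted p = 0.0729) was called relative to the other genes.

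ORAI2, a further pore subunit, was at 10729, 7702 and 6693 ERCC-scaled counts in Leo1_10 and at 4618, 2575 and 4710 in Leo1_01 (log2 fold change −1.08 with an SE of 0.45, adjusted p = 0.0422). Its fold change in ΔLEO1 cells relative to the other genes had the opposite sign and was not called (0.14, adjusted p = 0.637). STIM2, the second store sensor, was called lower in both genotypes (−1.14 and −1.18 on the log2 scale, adjusted p = 0.0486 and 0.0378), although its libraries overlapped between serum levels in both and it was not called relative to the other genes (−0.18, adjusted p = 0.516 and −0.14, adjusted p = 0.635). ORAI3 did not pass the test (log2 fold change −0.87, adjusted p = 0.117 in wild-type cells, log2 fold change −0.83, adjusted p = 0.122 in ΔLEO1 cells), and 52.9% of its exon bases are shared with ENSG00000261487 on the same strand, which had 0 to 3 counts per library.

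Of the 8 TRP channels 4 (50%) fell in wild-type cells and 3 (37.5%) in ΔLEO1 cells on the ERCC scale. The shares of all tested genes were 36.1% and 47.2%. TRPC4, a receptor-operated cation channel, was at 2192, 1893 and 1734 ERCC-scaled counts in WT_10 and at 327, 382 and 409 in WT_01 (log2 fold change −2.38 with an SE of 0.47, adjusted p = 4.52e-05). It was at 5216, 4063 and 4094 in Leo1_10 and at 351, 222 and 1288 in Leo1_01 (log2 fold change −2.85 with an SE of 0.47, adjusted p = 1.17e-06). The serum levels stood far apart in both genotypes, and TRPC4 had the largest decrease of the 35 genes in ΔLEO1 cells. It was the only one called lower there in each of the 12 fits that left out 1 library, and it was called on both scales in both genotypes (−1.40, adjusted p = 1.39e-05 and −1.99, adjusted p = 2.72e-10 relative to the other genes).

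TRPC6, opened by the diacylglycerol that phospholipase C leaves in the membrane, was at 4190, 3188 and 3030 ERCC-scaled counts in WT_10 and at 900, 931 and 1190 in WT_01 (log2 fold change −1.78 with an SE of 0.45, adjusted p = 0.00202). It was at 8726, 5922 and 11768 in Leo1_10 and at 1034, 579 and 5263 in Leo1_01 (log2 fold change −1.94 with an SE of 0.45, adjusted p = 0.00103). The groups did not overlap in either genotype, but library 6 and library 12 held more TRPC6 than the other libraries of their groups. Its fall was called relative to the other genes in ΔLEO1 cells (−1.25, adjusted p = 0.0194) and not in wild-type cells (−0.77, adjusted p = 0.168), where WT_01 library 9 and WT_10 library 2 were level by CPM. TRPM4, a cation channel that calcium opens and that carries sodium rather than calcium, was at 4273, 3526 and 2955 in WT_10 and at 1068, 1209 and 963 in WT_01 (log2 fold change −1.73 with an SE of 0.46, adjusted p = 0.00343). TRPV4, a channel opened by cell swelling and warmth, was at 1210, 1048 and 737 in WT_10 and at 406, 506 and 356 in WT_01 (log2 fold change −1.24 with an SE of 0.49, adjusted p = 0.0416). TRPM4 was also called lower relative to the other genes (−0.76, adjusted p = 2.20e-05), whereas TRPV4 was not (−0.27, adjusted p = 0.249).

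TRPM7, a channel joined to a kinase domain, was called in ΔLEO1 cells (log2 fold change −1.05 with an SE of 0.45, adjusted p = 0.0461) with overlapping libraries, and not relative to the other genes (−0.07, adjusted p = 0.795). TRPC1 did not pass the test in wild-type cells (log2 fold change −0.92, adjusted p = 0.101) or in ΔLEO1 cells (log2 fold change −0.25, adjusted p = 0.638), where relative to the other genes it was called higher (0.75, adjusted p = 0.000272). TRPA1, a channel for irritants, gave −0.51 and −0.17 on the log2 scale in wild-type and ΔLEO1 cells without a call (adjusted p = 0.397 and 0.761). TRPV2 was the only TRP channel with positive fold changes on the ERCC scale in both genotypes (0.81 and 0.64, adjusted p = 0.214 and 0.272), and relative to the other genes it was called higher in both (1.69, adjusted p = 0.00427 and 2.01, adjusted p = 0.000121). TRPV2 exceeded 1 CPM in 0 WT_10, 1 Leo1_10, 2 WT_01 and 3 Leo1_01 libraries, so the filter favoured a rise in low serum. That rise without the filter was not tested on this scale.

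The promoters of PKD2 and TRPC4, among the strongest responders to low serum, and of PLCG2, which differed most upward between genotypes, are printed here so that their base composition can be read beside the expression values. The windows are RefSeq's, of 300 bases each, with 250 before and 50 after the annotated start on GRCh38.p14, written 5′ to 3′, and capitals mark a GC box (GGGCGG, or CCGCCC on the other strand), the motif known as a binding site of SP1. PKD2 lies at chr4:88007385-88007684 on the plus strand, PLCG2 at chr16:81738791-81739090 on the plus strand and TRPC4 at chr13:37869723-37870022 on the minus strand.
PKD2: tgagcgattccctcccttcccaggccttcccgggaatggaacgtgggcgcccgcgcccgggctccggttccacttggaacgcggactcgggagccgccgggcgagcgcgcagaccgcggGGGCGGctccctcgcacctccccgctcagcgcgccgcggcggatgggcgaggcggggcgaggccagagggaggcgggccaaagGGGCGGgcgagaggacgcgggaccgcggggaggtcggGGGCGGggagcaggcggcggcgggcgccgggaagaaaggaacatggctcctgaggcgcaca
PLCG2: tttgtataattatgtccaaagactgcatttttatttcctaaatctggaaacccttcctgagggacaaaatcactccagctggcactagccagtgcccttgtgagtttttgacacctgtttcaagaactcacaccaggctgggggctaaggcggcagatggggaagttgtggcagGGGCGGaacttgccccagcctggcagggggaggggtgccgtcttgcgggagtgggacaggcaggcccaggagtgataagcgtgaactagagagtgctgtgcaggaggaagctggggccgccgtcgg
TRPC4: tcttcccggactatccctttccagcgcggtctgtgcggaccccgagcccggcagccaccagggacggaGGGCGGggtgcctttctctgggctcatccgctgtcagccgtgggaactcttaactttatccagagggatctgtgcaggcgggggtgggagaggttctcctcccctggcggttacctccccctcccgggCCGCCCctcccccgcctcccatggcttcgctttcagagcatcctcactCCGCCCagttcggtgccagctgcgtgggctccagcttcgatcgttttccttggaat
RefSeq's table held such a window for 29 of the 37 genes (not for ITPR2, PLCB4, ORAI1, TRPV2, TRPV4, TRPA1, CACNA1G and CACNA1H), and 23 of the 29 (79.3%) had a GC box, against 45% of all 35116 promoters. The median number of CG dinucleotides was 23 in the 29 promoters and 14 in all, with 44 in PKD2, 21 in TRPC4 and 8 in PLCG2. A TATA box (TATAAA on either strand) was found in 1 of the 29, that of PIEZO1, against 11.5% of all promoters, and the AP-1 letters TGAGTCA in none of them, against 4.95%. The 35116 promoters were not restricted to the genes tested here, so these shares do not compare the members with other expressed genes. For TRPC6, CACNA1C and PLCE1 the RefSeq start lay 288555, 82201 and 58214 bases downstream of the start of the gene in GENCODE. These matches describe letters in a window and show no binding.

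The voltage-gated channel subunits held the only tested gene of the set that was called higher in low serum on the ERCC scale. CACNA1G, the pore of a T-type channel that opens at weak depolarisation, was at 20.7, 13.4 and 7.09 ERCC-scaled counts in WT_10 and at 114, 110 and 57.9 in WT_01 (log2 fold change 2.83 with an SE of 0.64, adjusted p = 0.000239). The counts behind these values were 6, 5 and 4 in WT_10 and 82, 48 and 52 in WT_01. CACNA1G passed the filter only through the 3 WT_01 libraries, the group in which it was high, so that a tested CACNA1G had to differ, and its values are a description. When the filter was dropped it was still called (adjusted p = 0.00085). In ΔLEO1 cells it had 12, 11 and 15 counts in 10% serum and 29, 32 and 22 in 0.1% serum and was not called on the ERCC scale (log2 fold change 0.20 with an SE of 0.58, adjusted p = 0.758), whereas relative to the other genes it was called higher (1.39, adjusted p = 0.000694).

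CACNA1H, the other T-type gene listed, lay below the filter. It had 5, 2 and 2 counts in WT_10, 10, 8 and 7 in WT_01, 2, 1 and 2 in Leo1_10 and 30, 13 and 30 in Leo1_01. All 3 Leo1_01 libraries thus held more reads of it than any other library, and when the filter was dropped it was called higher in Leo1_01 than in Leo1_10 (adjusted p = 0.00472). CACNB3, a cytoplasmic beta subunit, was at 5186, 4395 and 2985 ERCC-scaled counts in WT_10 and at 1843, 2246 and 1807 in WT_01 (log2 fold change −1.09 with an SE of 0.45, adjusted p = 0.0487), a fall close to that of the median gene that was not called relative to the other genes (−0.09, adjusted p = 0.689). CACNA1C, the pore of the L-type channel, and CACNA2D1, its extracellular subunit, did not pass the test on the ERCC scale in wild-type cells (−1.07 and −1.02, adjusted p = 0.0504 and 0.0603) or in ΔLEO1 cells (−0.59 and −0.70, adjusted p = 0.23 and 0.158). By CPM, CACNA1C was at 32.1, 31.3 and 36.4 in Leo1_10 and higher in Leo1_01, at 41.7, 39.5 and 49.6, whereas CACNA2D1 overlapped between these groups.

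PIEZO1 was at 31585, 27522 and 19593 ERCC-scaled counts in WT_10 and at 9192, 11656 and 7162 in WT_01 (log2 fold change −1.49 with an SE of 0.44, adjusted p = 0.0084). It was at 33915, 27547 and 23087 in Leo1_10 and at 9109, 5794 and 18500 in Leo1_01 (log2 fold change −1.34 with an SE of 0.44, adjusted p = 0.0176). The mechanical channel was lower in every low-serum library of both genotypes, and it was called lower on the other scale as well (−0.54, adjusted p = 5.08e-06 and −0.29, adjusted p = 0.0213). PIEZO2 had 1, 4 and 0 counts in WT_10, 1, 0 and 1 in WT_01, 0, 0 and 0 in Leo1_10 and 1, 1 and 7 in Leo1_01, which allows no comparison.

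All 3 pumps fell in wild-type cells on the ERCC scale, against 36.1% of all tested genes. ATP2A2 was at 68605, 56932 and 63429 ERCC-scaled counts in WT_10 and at 17226, 20504 and 12771 in WT_01 (log2 fold change −1.90 with an SE of 0.44, adjusted p = 0.000588). ATP2B4 was at 142516, 117910 and 97369 in WT_10 and at 25594, 28341 and 29652 in WT_01 (log2 fold change −2.10 with an SE of 0.44, adjusted p = 0.000129). ATP2B1 was at 45417, 38269 and 14546 in WT_10 and at 12119, 12511 and 13204 in WT_01 (log2 fold change −1.38 with an SE of 0.44, adjusted p = 0.0146). The store pump and ATP2B4 stood far below their 10% serum levels in all 3 WT_01 libraries, whereas ATP2B1 lay only just below library 3 of WT_10. ATP2A2 and ATP2B4 also fell relative to the other genes (−1.02, adjusted p = 1.97e-05 and −1.10, adjusted p = 6.41e-05), and ATP2B1 was not called there (−0.27, adjusted p = 0.548).

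In ΔLEO1 cells 2 of the 3 pumps fell on the ERCC scale, against 47.2% of all tested genes. ATP2A2 was at 74387, 52854 and 66992 ERCC-scaled counts in Leo1_10 and at 18997, 10308 and 37309 in Leo1_01 (log2 fold change −1.54 with an SE of 0.44, adjusted p = 0.00735). ATP2B4 was at 133776, 95696 and 111122 in Leo1_10 and at 36064, 16654 and 93362 in Leo1_01 (log2 fold change −1.22 with an SE of 0.44, adjusted p = 0.0242). Both genes kept the serum levels apart by ERCC-scaled counts, ATP2B4 only just, since library 12 nearly reached library 5. Relative to the other genes ATP2A2 was called lower (−0.55, adjusted p = 0.0344) and ATP2B4 was not (−0.33, adjusted p = 0.31), its CPM overlapping between serum levels. ATP2B1 was not called on the ERCC scale (log2 fold change −0.06, adjusted p = 0.903) and was higher relative to the other genes (0.90, adjusted p = 0.0205).

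MCU, the pore of the mitochondrial calcium uniporter, was at 4508, 3438 and 2526 ERCC-scaled counts in WT_10 and at 1274, 1805 and 1368 in WT_01 (log2 fold change −1.24 with an SE of 0.46, adjusted p = 0.03). Its gatekeeper MICU2 was at 5774, 4153 and 3888 in Leo1_10 and at 1843, 1132 and 3449 in Leo1_01 (log2 fold change −1.11 with an SE of 0.46, adjusted p = 0.0405). Both values were near that of the median gene, and relative to the other genes neither MCU in wild-type cells (−0.24, adjusted p = 0.167) nor MICU2 in ΔLEO1 cells (−0.04, adjusted p = 0.815) was called. CAMK2D, the delta chain of calmodulin kinase II, was at 12052, 9530 and 8685 in WT_10 and at 3668, 4428 and 3450 in WT_01 (log2 fold change −1.39 with an SE of 0.45, adjusted p = 0.0151). It was at 8947, 6678 and 7075 in Leo1_10 and at 2687, 1496 and 5540 in Leo1_01 (log2 fold change −1.22 with an SE of 0.45, adjusted p = 0.0268). In both genotypes CAMK2D was lower in every low-serum library, and relative to the other genes it was called in wild-type cells (−0.43, adjusted p = 0.0204) but not in ΔLEO1 cells (−0.22, adjusted p = 0.294).

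**Figure D3:**
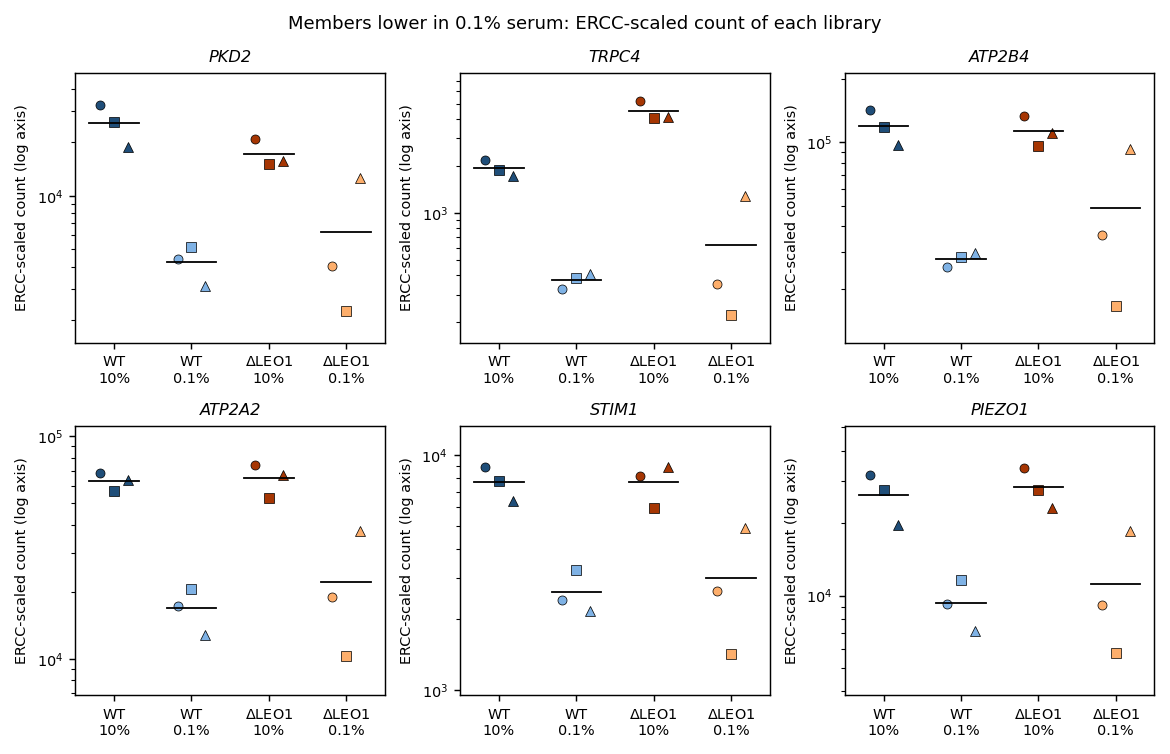
ERCC-scaled counts per library on a log axis for genes that responded to low serum, 1 panel per gene, with a marker per library (circle, square and triangle in ascending library number) and a black line at the mean of 3. The low-serum libraries of all 6 genes lie below the 10% serum libraries of their genotype, and library 12 (triangle) is the highest of the 3 Leo1_01 libraries in each panel.

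The serum calls depended on single libraries. The share of all tested genes called in the fits below that left out libraries is not given here. Of the 21 genes lower in wild-type cells, JPH2, PKD2, PLCB4, TRPC4, TRPC6, TRPM4, ATP2A2 and ATP2B4 were called in each of the 12 fits that left out 1 library, and the count was 8 without WT_01 library 7, 9 without WT_10 library 1 or WT_01 library 9, 13 without WT_10 library 2 and up to 30 without Leo1_01 library 12. TPCN2, PLCE1, STIM2, TRPV4 and CACNB3 were not called lower in wild-type cells by the quasi-likelihood test, nor PLCG1, STIM2, ORAI2, TRPM7 and MICU2 in ΔLEO1 cells. CACNA1G fell below the filter and was not tested in the 3 fits that left out a WT_01 library. In ΔLEO1 cells the count was 1 without Leo1_01 library 10, 4 without Leo1_10 library 4, 5 without Leo1_01 library 11, 12 without Leo1_10 library 5 and 31 without Leo1_01 library 12. It was 32 of 33 tested when the highest-numbered library of every group was left out.

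ΔLEO1 cells were then compared with wild-type cells at each serum level, which asks which calcium genes differ in this clone. In 10% serum 1 of the 35 genes was lower and 4 were higher on the ERCC scale, against 4.64% and 4.2% of all tested genes, with a median log2 fold change of 0.05. In 0.1% serum 1 was lower and 4 higher, against 3.59% and 3.85%, with a median of 0.23. PLCE1 was lower and PLCG2, TRPV2 and TRPA1 were higher at both serum levels, against 2.92% of all tested genes that were lower and 2.8% that were higher at both. These comparisons share their libraries with the serum comparisons. PLCE1 passed the filter only through wild-type libraries, PLCG2 only through ΔLEO1 libraries and TRPA1 in all 6 ΔLEO1 and 2 wild-type libraries. TRPV2 passed it through 1 Leo1_10, 3 Leo1_01 and 2 WT_01 libraries. The filter thus favoured a difference between genotypes for these genes. Without the filter PLCE1 (2.79e-11 and 9.63e-09), PLCG2 (6.09e-06 and 7.86e-05), TRPA1 (0.000236 and 1.99e-05) and TRPV2 (0.0245 and 0.0356) were called at both serum levels too, by the adjusted p in 10% and 0.1% serum. By share of the RNA 12 were lower and 5 higher in 10% serum, against 21.8% and 17.7%, and 8 lower and 5 higher in 0.1% serum, against 17.6% and 15.4%.

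**Figure D4:**
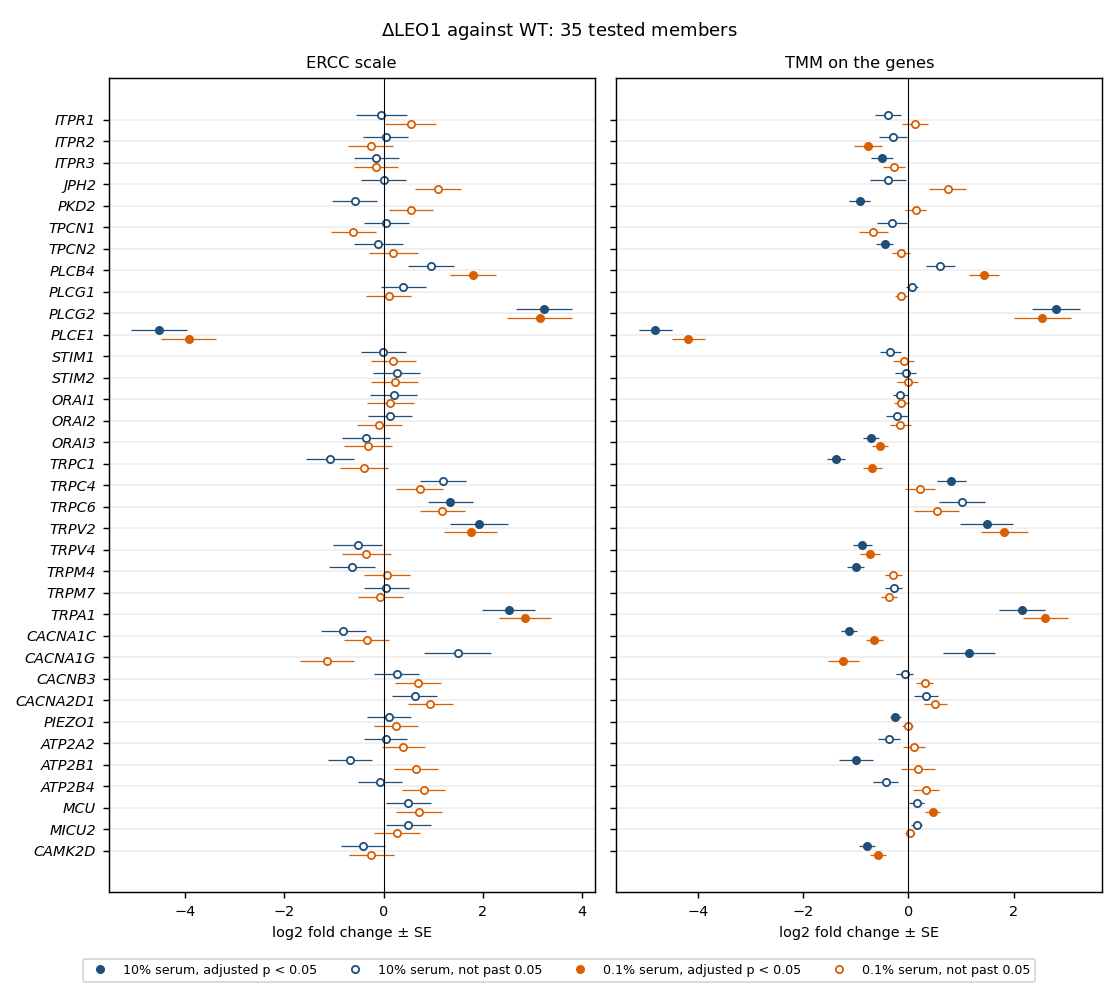
Log2 fold change of the 35 tested genes between ΔLEO1 and wild-type cells in 10% and in 0.1% serum, on the ERCC scale and relative to the other genes, with SE bars and filled markers at an adjusted p under 0.05. PLCE1 stands lowest, and PLCG2 and TRPA1 stand highest, at both serum levels.

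PLCE1 (ENSG00000138193, chr10:94030812-94332823) was lower in ΔLEO1 cells. In 10% serum it was at 902, 743 and 425 ERCC-scaled counts in wild-type and 32.6, 25.7 and 30.9 in ΔLEO1 libraries, from 261, 277 and 240 and 8, 10 and 13 counts (log2 fold change −4.53 with an SE of 0.57, adjusted p = 1.17e-11). In 0.1% serum it was at 257, 315 and 264 and 19.7, 7.37 and 30.8, from 185, 137 and 237 and 13, 8 and 12 counts (log2 fold change −3.93 with an SE of 0.56, adjusted p = 4.30e-09). All 6 ΔLEO1 libraries lay far below all 6 wild-type libraries, and the call held in each fit that left out 1 library. The fold change was −4.80 and −4.18 relative to the other genes, with adjusted p = 1.13e-65 and 2.30e-49.

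PLCG2 (ENSG00000197943, chr16:81739097-81962693) was higher in ΔLEO1 cells. In 10% serum it was at 34.6, 26.8 and 28.3 ERCC-scaled counts in wild-type and 367, 260 and 223 in ΔLEO1 libraries, from 10, 10 and 16 and 90, 101 and 94 counts (log2 fold change 3.24 with an SE of 0.57, adjusted p = 1.97e-06). In 0.1% serum it was at 2.78, 4.60 and 13.4 and 36.3, 18.4 and 154 (log2 fold change 3.14 with an SE of 0.65, adjusted p = 3.06e-05). Every ΔLEO1 library lay above every wild-type library at the same serum level, and both calls held in all 12 fits that left out 1 library. The 3 markers of blood cells, in which PLCG2 is known, summed to 0.317 to 0.760 CPM in the wild-type libraries. They summed to 1.61 to 6.17 CPM in Leo1_10 and to 5.41 to 7.29 CPM in Leo1_01, with 1 of the 3 at 0 in Leo1_01. A single marker reached 6.09 CPM in Leo1_10 and 7.26 CPM in Leo1_01, close to the highest sums. The part of these markers in the PLCG2 values was not tested. PLCG1, its relative, did not pass the test at either serum level (0.40 and 0.10, adjusted p = 0.658 and 0.942). PLCE1 and PLCG2 were thus changed in opposite directions within 1 enzyme family.

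PLCB4 was called higher in ΔLEO1 cells in 0.1% serum, at 430, 717 and 312 ERCC-scaled counts in wild-type and 937, 724 and 3402 in ΔLEO1 libraries (log2 fold change 1.80 with an SE of 0.46, adjusted p = 0.00334). In 10% serum its libraries did not overlap either but the difference was not called (log2 fold change 0.96 with an SE of 0.46, adjusted p = 0.249). Library 12 held far more PLCB4 than libraries 10 and 11, and without it the difference in 0.1% serum was 0.78 and not called (adjusted p = 0.272). The call was also lost without WT_01 library 7 or 9 (adjusted p = 0.0606 and 0.0768). The effect of genotype on PLCB4 differed between serum levels by 0.83, which was not called (adjusted p = 1).

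Among the TRP channels, TRPA1 (ENSG00000104321) was higher in ΔLEO1 cells. In 10% serum it was at 83.0, 115 and 26.6 ERCC-scaled counts in wild-type and 669, 442 and 169 in ΔLEO1 libraries, from 24, 43 and 15 and 164, 172 and 71 counts (log2 fold change 2.52 with an SE of 0.53, adjusted p = 0.000132). In 0.1% serum it was at 73.7, 59.8 and 23.4 and 321, 184 and 632, from 53, 26 and 21 and 212, 200 and 246 counts (log2 fold change 2.86 with an SE of 0.52, adjusted p = 1.00e-05). All ΔLEO1 libraries exceeded all wild-type libraries, and the calls held in all 12 fits that left out 1 library. On the other strand MSC-AS1 overlaps 15.4% of TRPA1's exon bases, and its own fold changes were negative and not called (−1.09 and −0.93). The kit marks strand, but the strand setting of the counting is not given in the sources used here, so reads of the 2 genes may not be separated.

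TRPV2 (ENSG00000187688, chr17:16415542-16437003), a channel of the plasma membrane and endosomes, was higher as well. In 10% serum it was at 31.1, 40.2 and 21.3 ERCC-scaled counts in wild-type and 184, 111 and 59.3 in ΔLEO1 libraries, from 9, 15 and 12 and 45, 43 and 25 counts (log2 fold change 1.92 with an SE of 0.58, adjusted p = 0.0147). In 0.1% serum it was at 57.0, 80.5 and 25.6 and 264, 135 and 144 (log2 fold change 1.76 with an SE of 0.53, adjusted p = 0.0203). The genotypes did not overlap, but with few counts each call was lost in 3 of the 12 fits that left out 1 library. In 10% serum the adjusted p was 0.0544 without WT_10 library 1, 0.1 without WT_10 library 3 and 0.225 without Leo1_10 library 4. In 0.1% serum it was 0.113 without WT_01 library 7, 0.28 without WT_01 library 9 and 0.207 without Leo1_01 library 10.

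TRPC6 was higher in ΔLEO1 cells in 10% serum, at 4190, 3188 and 3030 ERCC-scaled counts in wild-type and 8726, 5922 and 11768 in ΔLEO1 libraries (log2 fold change 1.34 with an SE of 0.45, adjusted p = 0.0423). In 0.1% serum the genotypes overlapped and it was not called (log2 fold change 1.18, adjusted p = 0.114). The call in 10% serum was lost relative to the other genes (1.02, adjusted p = 0.0513), by the quasi-likelihood test (adjusted p = 0.0673) and by DESeq2 (adjusted p = 0.298). It was kept in 4 of the 12 fits that left out 1 library, with an adjusted p of 0.256 without Leo1_10 library 6. TRPC4 was called higher in 10% serum only relative to the other genes (0.81, adjusted p = 0.0119), and not on the ERCC scale (log2 fold change 1.20, adjusted p = 0.101).

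**Figure D5:**
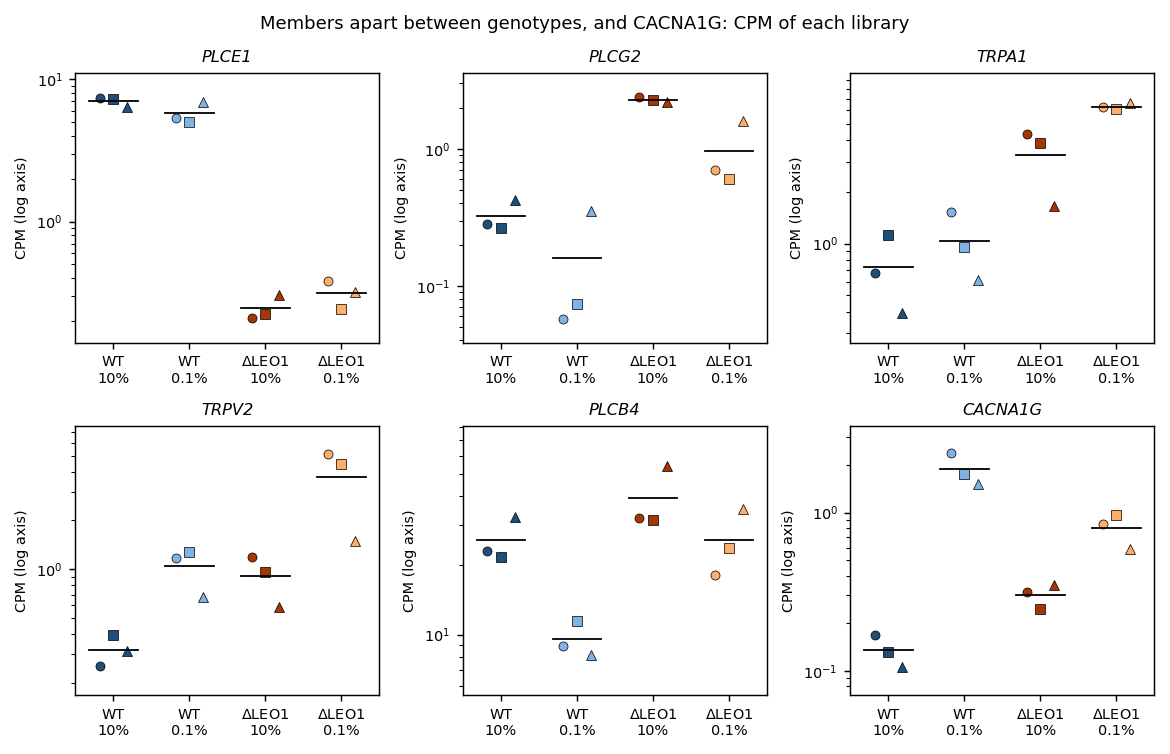
CPM per library on a log axis for PLCE1, PLCG2, TRPA1, TRPV2, PLCB4 and CACNA1G, with a marker per library (circle, square and triangle in ascending library number) and a black line at the mean of 3. The ΔLEO1 libraries of PLCE1 lie below all wild-type libraries and those of TRPA1 above them, and library 12 (triangle) stands above libraries 10 and 11 for PLCB4.

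By share of the RNA 6 of the 35 were lower in ΔLEO1 cells at both serum levels, PLCE1, ORAI3, TRPC1, TRPV4, CACNA1C and CAMK2D, and the same 3 were higher as on the ERCC scale, against 13.8% and 10.2% of all tested genes. TRPC1 was at 17.0, 14.3 and 14.1 CPM in WT_10 and at 5.41, 5.18 and 6.84 in Leo1_10 (−1.38, adjusted p = 1.35e-13). CACNA1C was at 76.4, 76.0 and 66.5 CPM in WT_10 and at 32.1, 31.3 and 36.4 in Leo1_10 (−1.13, adjusted p = 1.03e-11). The L-type pore and TRPC1 were lower in all 3 ΔLEO1 libraries in 10% serum by their share of the RNA, and on the ERCC scale neither was called (adjusted p = 0.358 and 0.202). PKD2 was lower relative to the other genes in 10% serum (−0.93, adjusted p = 1.02e-05) and not in 0.1% serum (0.13, adjusted p = 0.641), with no call on the ERCC scale at either level. TRPM4 gave the same pair of calls (−1.003, adjusted p = 4.25e-09 in 10% serum and −0.29, adjusted p = 0.16 in 0.1% serum).

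The interaction of both factors compares the low-serum response of ΔLEO1 cells with that of wild-type cells. None of the 35 genes was called on the ERCC scale, against 0.219% of all tested genes, by edgeR's likelihood ratio or quasi-likelihood test or by DESeq2, and 1 lower and 1 higher had an unadjusted p under 0.05. CACNA1G had the largest difference, −2.63 on the log2 scale (adjusted p = 0.424). Relative to the other genes 1 was lower and 2 higher, against 4.08% of all tested genes in either direction. These were CACNA1G (−2.39, adjusted p = 0.00112), PKD2 (1.06, adjusted p = 0.00471) and TRPM4 (0.71, adjusted p = 0.0425), of which CACNA1G was tested only through its high WT_01 libraries, and that interaction without the filter was not tested on this scale.

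For CACNA1G the libraries were 0.169, 0.131 and 0.106 CPM in WT_10, 2.37, 1.76 and 1.52 in WT_01, 0.317, 0.246 and 0.350 in Leo1_10 and 0.852, 0.970 and 0.586 in Leo1_01. ΔLEO1 cells thus held more of it than wild-type cells in 10% serum and less in 0.1% serum, with no overlap at either level. PKD2 was at 265, 254 and 280 CPM in WT_10, 92.1, 82.2 and 82.1 in WT_01, 134, 131 and 154 in Leo1_10 and 77.7, 73.7 and 130 in Leo1_01. TRPM4 was at 34.7, 34.5 and 44.1 CPM in WT_10, 22.2, 19.3 and 25.3 in WT_01, 18.1, 18.1 and 20.3 in Leo1_10 and 17.3, 16.2 and 21.1 in Leo1_01. The genotypes were apart for PKD2 and TRPM4 in 10% serum and overlapped in 0.1% serum. Without the highest-numbered library of each group the interaction was 0.76 for PKD2 and 0.62 for TRPM4, and by the quasi-likelihood test the adjusted p was 0.0595 and 0.102, against 0.0244 for CACNA1G.

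The list of other calcium genes held 106 further genes of release, entry, export and calcium sensing, of which 67 were tested. It was written with earlier results of these data known, so its shares are a description. On the ERCC scale 29 (43.3%) were lower and 1 higher in low serum in wild-type cells, against 36.1% and 0.944% of all tested genes, and 31 (46.3%) lower and 1 higher in ΔLEO1 cells, against 47.2% and 0.975%. Between genotypes 8 (11.9%) were lower and 1 higher in 10% serum, against 4.64% and 4.2%, and 7 (10.4%) were lower and none higher in 0.1% serum, against 3.59% and 3.85% (5 higher at an unadjusted p under 0.05, and none by the quasi-likelihood test or DESeq2). None had a called interaction by any of these tools, with 1 higher and none lower at an unadjusted p under 0.05.

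Those that were lower at both serum levels in ΔLEO1 cells spanned several of these roles. Among the ones described here, the largest differences in 10% serum were those of NFATC1, a transcription factor that calcineurin activates, with 158 to 201 counts in WT_10 and 1 to 3 in Leo1_10 (adjusted p = 2.00e-16) and 227 to 392 in WT_01 and 2 to 10 in Leo1_01 (adjusted p = 1.22e-16), and of RCAN2, an inhibitor of calcineurin, whose log2 fold changes were −5.66 and −3.12 (adjusted p = 7.34e-20 and 4.81e-08). CACNA1A, a P/Q-type channel pore, had 460 to 484 counts in WT_10 and 4 to 11 in Leo1_10, and 366 to 431 in WT_01 and 3 to 7 in Leo1_01 (adjusted p = 2.16e-16 and 7.12e-19). The SERCA gene ATP2A3, with 1 to 17 counts in the ΔLEO1 libraries, gave −3.04 and −3.34 (adjusted p = 2.30e-05 and 1.24e-06), while the listed SERCA gene ATP2A2 gave 0.04 and 0.40 with no call. SLC8A1, a sodium-calcium exchanger, gave −1.78 and −1.58 (adjusted p = 0.00236 and 0.0107), and MCOLN3, a channel of endosomes, gave −2.28 and −2.13 (adjusted p = 0.00141 and 0.00234).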

How the data were processed

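Poly(A) RNA of 12 libraries was sequenced. Per the labels and the study's methods, the authors aligned reads to GRCh38 together with the ERCC sequences and counted them per gene. The submitters' processing notes name bcl2fastq 2.20.0.422, STAR 2.7.10a and featureCounts 1.5.1. The annotation release and the strand setting are not given in the sources used here. The deposited values are raw counts per gene and per ERCC transcript in each library (92 transcripts, 91 with counts). CPM and ERCC-scaled counts were computed from them.

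The members were the listed symbols matched to Ensembl identifiers, and the members and gene lists were chosen with earlier results of these data known. Genes above 1 CPM in at least 3 libraries were tested with edgeR 4.0.16 (R 4.3.3) in 1 negative binomial fit of 12 libraries in 4 groups, with two-sided likelihood ratio tests, ERCC totals times their TMM factor as library sizes, and Benjamini-Hochberg adjustment over 13236 genes (threshold 0.05). "Relative to the other genes" means the same fit with TMM on the gene counts. Every gene of the set was accounted for. Values in all libraries are given for those called in a comparison with no overlap between its groups, and up to 8 other calcium genes called in the same direction at both serum levels are named, except 1 that is not reported here. The CPM values of TRPC1 and CACNA1C by library, and MICU3 and NFATC2, lie outside this rule and were chosen after their values were seen. Exon lengths and positions come from GENCODE 29 (GRCh38), promoter sequences from RefSeq.

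Alternatives were the quasi-likelihood test, DESeq2 1.42.0, other scalings, other filters, a fit to the 6 libraries of a comparison, each library left out, the highest-numbered libraries left out and the lowest-numbered pair of each group summed. After the data had been seen, 2 were added for the fit relative to the other genes, which were the highest-numbered libraries left out and the quasi-likelihood test. The fits were tested on simulated counts.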

Additional observations from a re-analysis of the deposited data

Results flagged for a closer look

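The low-serum response relative to the other genes differed between genotypes for PKD2, by 1.06 on the log2 scale (SE 0.27, adjusted p = 0.00471). For TRPM4 it differed by 0.71 (SE 0.23, adjusted p = 0.0425). For CACNA1G it differed by −2.39 (SE 0.57, adjusted p = 0.00112), and here all ΔLEO1 libraries lay above the wild-type libraries in 10% serum and below them in 0.1% serum, both by CPM and on the ERCC scale, where the difference was −2.63 (adjusted p = 0.424) and was not called. CACNA1G rested on 4 to 82 counts per library and passed the filter only through the 3 WT_01 libraries, without any 1 of which it was not tested. PKD2 and TRPM4 were not called on the ERCC scale either, nor by the quasi-likelihood test relative to the other genes. In groups of 3 libraries no single library was tested as standing apart.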

How the results depend on the processing

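No paired analysis was possible because the labels number the libraries 1 to 12 without repeating a number between groups. The counts of called genes among the 35 moved with scaling and with single libraries. With TMM on the genes, 11 were lower and 2 higher for low serum in wild-type cells, 7 and 5 in ΔLEO1 cells, 12 were lower for the genotype in 10% serum and 8 in 0.1% serum, and the interaction had 1 lower and 2 higher. With DESeq2 size factors on the genes these were 10 and 2, 7 and 5, 11, 8, and 1 and 2. In ΔLEO1 cells the low-serum change was negative for 33 of the 35 on the ERCC scale and for 20 with TMM. Those that turned positive under these scalings included ORAI2 (0.14 by both), TRPC1 (0.75 by both), CACNA1C (0.39 by both) and ATP2B1 (0.90 by both). The genotype difference in 10% serum was negative for 14 on the ERCC scale and for 24 with TMM, among them PIEZO1 at −0.26 with TMM. Without the highest-numbered library of each group, none was higher for low serum in wild-type cells (0), 32 were lower in ΔLEO1 cells, 3 were lower for the genotype in 10% serum, and 8 were lower and 2 higher in 0.1% serum. Only 33 of the 35 were tested without these libraries, on either scale, because CACNA1G and PLCG2 fell below the filter. With the lowest-numbered pair of each group summed, 6 were lower and 0 higher in wild-type cells, 1 was lower in ΔLEO1 cells and 2 were higher for the genotype in 10% serum. With the pair summed 34 were tested, as CACNA1G fell below the filter. With no filter 12 were lower and 1 higher for low serum in ΔLEO1 cells, and with filterByExpr 1 was higher. The 1 that was higher with no filter was CACNA1H, which is not among the 35. Which gene was higher with filterByExpr is not given here. A fit to the 6 libraries compared gave 7 lower for low serum in ΔLEO1 cells and 2 higher for the genotype in 0.1% serum, and no such fit exists for the interaction. Leaving out 1 library gave 8 to 30 lower and 0 to 1 higher in wild-type cells, 1 to 31 lower and 0 higher in ΔLEO1 cells, 1 to 2 lower and 2 to 5 higher for the genotype in 10% serum, 1 to 2 lower and 2 to 8 higher in 0.1% serum, and 0 to 1 lower and 0 higher for the interaction. Relative to the other genes, with the highest-numbered libraries left out (chosen after seeing the data), 19 were lower and 5 higher in wild-type cells, 11 and 10 in ΔLEO1 cells, 20 and 14 lower for the genotype in 10% and 0.1% serum, and 4 lower and 12 higher for the interaction. There TPCN1 in low serum in ΔLEO1 cells was at 0.32 and the genotype difference of PKD2 in 0.1% serum at −0.21. The quasi-likelihood test on that scale, also chosen after seeing the data, gave 3 higher in ΔLEO1 cells and 0 higher for the interaction. For the fits that left out or summed libraries, the share of all tested genes called is not given here. Their counts therefore do not show whether the set moved more than other genes. The cause of these shifts was not tested. Depth limits CACNA1G, PLCG2, PLCE1, TRPV2 and TRPA1, which had under 20 counts in some libraries, as well as CACNA1H and PIEZO2.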

Other observations

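Several genes of the set differed within groups between the highest-numbered library and the other 2, and not in 1 direction. By CPM, ATP2B1 was at 369, 375 and 217 in WT_10 and at 192, 195 and 95.6 in Leo1_10, so library 3 and library 6 were lowest, whereas it was at 251, 200 and 347 in WT_01 and at 269, 238 and 395 in Leo1_01, where library 9 and library 12 were highest. JPH2 was at 42.8, 40.2 and 88.6 CPM in WT_10 and at 31.0, 31.1 and 68.9 in Leo1_10, with library 3 and library 6 highest. TPCN1 was at 175, 172 and 85.2 CPM in WT_01 and at 108, 101 and 63.1 in Leo1_01, with library 9 and library 12 lowest. TRPC6 was at 56.4, 51.5 and 116 CPM in Leo1_10 and at 20.1, 19.1 and 54.5 in Leo1_01, with library 6 and library 12 highest. What sets these libraries apart is not given in the labels and was not tested.

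Among the other calcium genes, MICU3, a regulator of the mitochondrial uniporter, was the 1 called higher in ΔLEO1 cells in 10% serum (log2 fold change 2.01 with an SE of 0.47, adjusted p = 0.000751), while the listed regulator MICU2 gave 0.50 with no call (adjusted p = 0.59). NFATC2 was the 1 called higher in low serum in wild-type cells (log2 fold change 1.60 with an SE of 0.49, adjusted p = 0.011). RCAN2 was the 1 called higher in low serum in ΔLEO1 cells (log2 fold change 1.91 with an SE of 0.50, adjusted p = 0.00318), and when the highest-numbered library of every group was left out its log2 fold change was 0.07. MICU3 and NFATC2 were named after their values were seen.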
